A study of Mus musculus with 8 samples.

Results

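Axonemal dynein, cytoplasmic dynein and dynactin genes were compared between testes of Vrk1 mutant and wild-type mice. Dyneins are motors that walk along microtubules, and dynactin is the complex that cytoplasmic dynein needs to carry most of its cargo. Axonemal dyneins sit in rows on the microtubule doublets of cilia and of the sperm tail. Their outer arms set the beat frequency and their inner arms shape the bend. Cytoplasmic dynein 1 moves vesicles, nuclei and spindles inside cells, and dynein 2 carries cargo from the tip of a cilium or growing flagellum back to its base. In the testis, axonemal dynein genes are read from meiosis onwards, when the parts of the tail are prepared, while cytoplasmic dynein is used by germ cells and somatic cells alike. The members described here are 33 genes, read by 78 array probes, whose gene name in the scanner files begins with Dnah, Dnai, Dnal, Dync, Dynl or Dctn. The whole array has 41174 different probes, besides controls, of 27670 genes. The axonemal names (Dnah, Dnai, Dnal) cover 33 probes of 14 genes, and the cytoplasmic ones (Dync, Dynl, Dctn) cover 45 probes of 19 genes. Older spellings in those files, such as Dnahc8 or Dnalc4, are written here in their current form.

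The study measured total RNA of mixed testis cells from male mice of 2 genotypes on single-colour Agilent arrays, with 4 biological replicates and 1 array a replicate. The mutant mice are labelled VRK1-/- and the others wild type, VRK1+/+. Vrk1 encodes a nuclear serine/threonine kinase. The sources used here do not give the kind of allele, the strain or the age of the mice. The comparison asks how RNA levels differ between testes with and without intact Vrk1. A level is given as log2 of a probe's signal over the 75th percentile of its array, so that 0 is the level of that percentile, and array values are listed for replicates 1 to 4. A probe entered the test with a signal flagged well above background on 4 or more of the 8 arrays, which kept 71 of the 78 probes of these genes and 33717 probes in all. It is called higher or lower in the mutant if its adjusted p in limma's moderated test, adjusted by Benjamini-Hochberg over all tested probes, is under 0.05. A difference is the mutant mean minus the wild-type mean on the log2 scale, given with its standard error (SE).

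Both Vrk1 probes were lower on the mutant arrays, with log2 differences of -2.26 and -2.06 (limma adjusted p = 1.65e-04 and 1.24e-04), and stayed well above background there. The 75th percentile of the signal was 996 ± 87.3 on mutant and 719 ± 51.3 on wild-type arrays (SD, n = 4 each). All mutant arrays lay on 1 slide and all wild-type arrays on another, each slide with its own scan, so genotype cannot be told apart from slide or scan anywhere below. Mutant replicates 1 and 4 stood apart in transcripts of the epididymis: the signals of 15 such genes summed to 34.0 and 21.3 times the 75th percentile there, to 2.45 and 1.85 on mutant replicates 2 and 3, and to between 1.03 and 1.44 in wild type. Lcn8, an epididymal lipocalin, was not well above background on any array. Testis markers were measured in both genotypes, with all 14 late spermatocyte, 16 round spermatid and 15 elongating spermatid genes tested, and 4 genes of liver, pancreas, heart and B cells summed to 0.604 to 1.07 in the mutant and 0.441 to 0.581 in wild type. When these 2 mutant arrays were left out, limma called 0 of the 71 tested member probes, and 3.91% of all probes higher and 0.652% lower. At an unadjusted p under 0.05, 16 of the 71 were then lower and 7 higher. All 26 member probes called with the full set of arrays kept their direction in that smaller set. The full set includes the smaller one, so the kept direction is no separate support for the calls.

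Most dynein and dynactin RNAs that differed were lower in the mutant testis. Of 28 tested axonemal probes, 8 were called lower and 1 higher, against 10.8% and 21.2% of all tested probes. Of 43 tested cytoplasmic probes, 12 were called lower and 5 higher. With cyclic loess the cytoplasmic calls were 4 lower and 5 higher. Over all tested probes the higher calls were 66.2% of all calls, a share that other scalings and background corrections moved to between 33.9% and 76.2%. By gene, 6 of the 14 axonemal genes had a probe that was lower, 1 had a probe that was higher and 7 had none. Of the 19 cytoplasmic genes, 8 had a lower probe, 4 a higher probe, and 7 had none. A gene with several probes has more chances of a call. By the brightest probe alone, 5 axonemal genes were lower and 0 higher, and 6 cytoplasmic genes were lower and 2 higher. By that measure 12.4% of all tested genes were lower and 21.6% higher. The median difference was -0.37 over the axonemal and -0.32 over the cytoplasmic probes, beside 0.052 over all tested probes. Neither median changed sign under any of the settings tried. Fewer cells that carry an RNA and less of that RNA per cell cannot be told apart in such bulk samples.

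The mutant arrays lay wholly below the wild-type arrays for 7 axonemal and 14 cytoplasmic probes, which 13.8% of all tested probes did. They lay wholly above for 2 axonemal and 6 cytoplasmic probes, against 21.6% of all tested probes. Averaged over all tested axonemal probes, the log2 level was -1.21, -0.91, -1.09 and -0.97 on the mutant arrays, against -1.03, -0.70, -0.70 and -0.72 on the wild-type arrays. Averaged over the cytoplasmic probes it was 0.70, 0.88, 0.85 and 0.83 on the mutant arrays, against 0.84, 0.98, 1.00 and 1.05 on the wild-type arrays. Both averages overlapped between the genotypes, with wild-type replicate 1 among the mutant values.

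**Figure D1:**
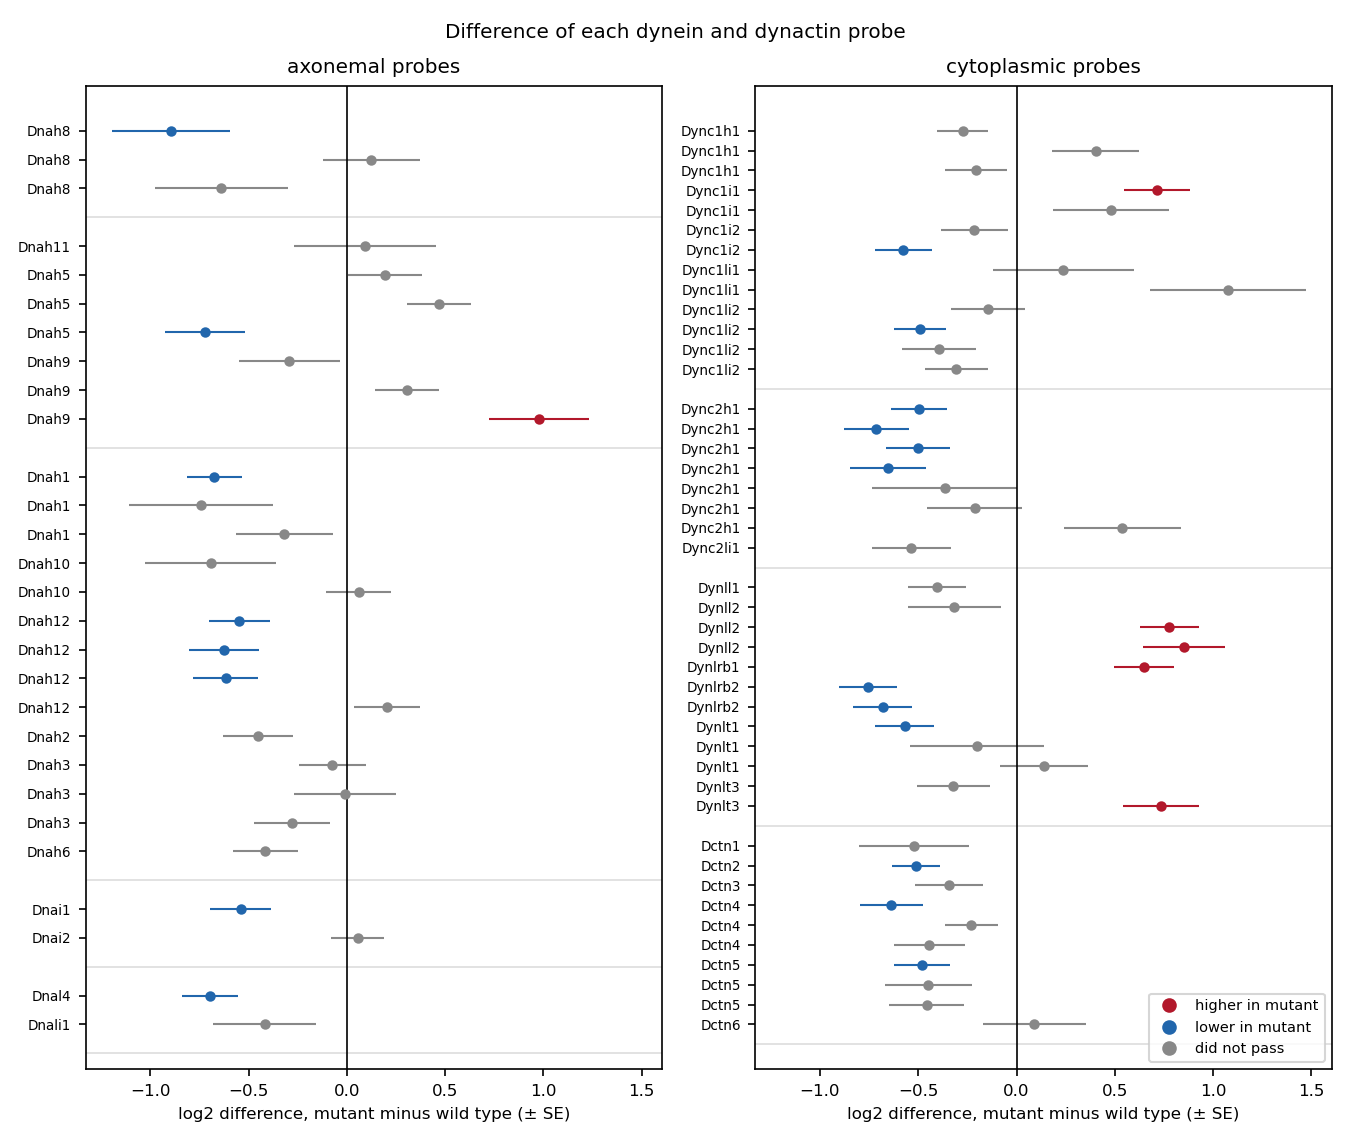
Log2 difference (mutant minus wild type) with its SE for each of the 71 tested probes, grouped by role, with the axonemal genes on the left and the cytoplasmic genes on the right. Blue points were called lower in the mutant, red points higher, and grey points did not pass. The axonemal side has 8 blue points and 1 red point, and the cytoplasmic side 12 blue and 5 red.

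The size of a difference went with the brightness of the probe, in the dyneins and across the array. Over all 10320 tested probes with a mean log2 level of 0 or more, the median difference was -0.30, and 23.0% were called lower and 11.2% higher. In that range the 10 axonemal probes had a median of -0.58, with 7 called lower and 0 higher. The 29 cytoplasmic probes there had a median of -0.45, with 12 called lower and 4 higher. Among the dimmer probes the picture was different. The median over all 23397 of them was 0.22, with 25.7% called higher and 5.46% lower. The 18 dim axonemal probes had a median of 0.023, with 1 called in each direction, and the 14 dim cytoplasmic probes one of -0.030, with 1 called higher and 0 lower.

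**Figure D2:**
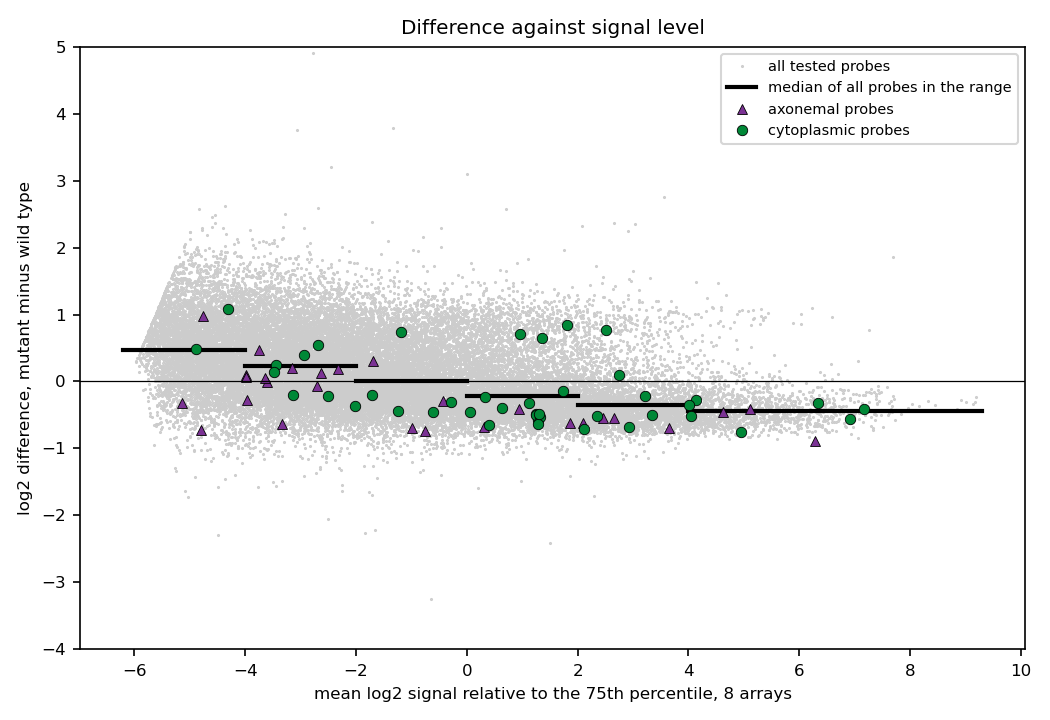
Difference (log2, mutant minus wild type) against mean log2 level over the 8 arrays for every tested probe (grey), with axonemal probes as purple triangles and cytoplasmic probes as green circles. Black bars give the median of all probes in each range of level, which falls from above 0 on the left to -0.44 above a level of 4.

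Outer arm heavy chains come in a sperm type and a type of motile cilia. Dnah8 encodes the gamma-type heavy chain of the outer arm in sperm. Its brightest probe, at chr17:29067432-29067491 in the mm7 coordinates of the array files, read 5.25, 6.06, 5.92 and 6.14 on the mutant arrays and 5.87, 6.98, 6.99 and 7.13 on the wild-type arrays. The genotypes overlapped, because wild-type replicate 1 lay below 3 of the mutant arrays. Dnah8 was called lower by this probe, with a 1.86-fold fall (difference -0.90, SE 0.30, adjusted p = 0.0463). Of the 8 fits with 1 array dropped, only that without wild-type replicate 1 kept the call (difference -1.19, adjusted p = 0.00593), and 5 of the 11 other settings with all arrays kept it. The other two Dnah8 probes lie upstream and are dim, and their differences of 0.12 and -0.64 did not pass. Dnah17, the second outer arm heavy chain of sperm, is named by a cDNA clone on this array and is no member. The brightest of its 3 probes read 3.36, 3.70, 3.45 and 3.34 in the mutant, against 4.05, 4.11, 4.11 and 4.17 in wild type. Here the genotypes were fully apart, and Dnah17 was lower in the mutant by this probe (difference -0.65, SE 0.13, adjusted p = 0.00743). Its dimmer probes, at -0.13 and -0.47, did not pass.

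The sequence that the brightest Dnah8 probe reads is shown with that of Dnah1 because these probes had the largest called falls among the outer and the inner arm heavy chains. Both are 60 bases, 5′ to 3′, as in the array files, all in lower case since no part is singled out.
Dnah8 (chr17:29067432-29067491, plus strand): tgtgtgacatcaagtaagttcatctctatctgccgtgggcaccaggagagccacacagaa
Dnah1 (chr14:28738492-28738551, minus strand): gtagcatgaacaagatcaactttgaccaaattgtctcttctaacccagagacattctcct

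Dnah5, Dnah9 and Dnah11 encode the outer arm heavy chains of motile cilia, known from ciliary dyskinesia. Their signals in the testis were mostly dim and showed no common direction. The brightest Dnah5 probe read -2.50, -2.07, -2.25 and -2.13 in the mutant and -2.48, -2.21, -2.14 and -2.88 in wild type. These values overlapped, and the difference of 0.19 (SE 0.19) did not pass (adjusted p = 0.435). The other Dnah5 probes pointed opposite ways, although they lie close together. One gave 0.47 with an adjusted p of 0.0511, and the other, near the floor of the signal, was called lower, at -0.72 (adjusted p = 0.0253). With a floor 4 times as high, the mutant and wild-type values of that probe were all at the floor. Dnah9 read -0.068, -0.61, -0.71 and -0.91 in the mutant and -0.42, 0.071, 0.11 and -0.89 in wild type with its brightest probe, an overlap with a difference of -0.29 (SE 0.26, adjusted p = 0.392). A dim Dnah9 probe was the one axonemal probe called higher. It read -4.36, -4.21, -4.24 and -4.27 in the mutant and -6.09, -4.87, -5.17 and -4.87 in wild type, where it was well above background on 2 of 4 arrays. Its difference was 0.98 (adjusted p = 0.0191), and with normexp background correction it was -0.24, the opposite sign. Dnah11 read -4.33, -4.36, -4.28 and -2.77 in the mutant and -4.35, -4.23, -4.09 and -3.44 in wild type. Mutant replicate 4 was far above the other 3 mutant arrays, and the difference of 0.091 (SE 0.36) did not pass (adjusted p = 0.860).

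Inner arm heavy chains were lower where they passed. Of 14 tested probes of 6 genes, 4 were called lower and 0 higher, beside 10.8% and 21.2% of all tested probes, with a median of -0.43. Dnah1 encodes an inner arm heavy chain, and its loss in people is known to give short and irregular sperm tails. Its brightest probe read -0.19, 0.22, -0.027 and -0.084 on the mutant arrays and 0.53, 0.62, 0.63 and 0.84 on the wild-type arrays. Every mutant array lay below every wild-type array. The 1.60-fold fall (difference -0.68, SE 0.14, adjusted p = 0.00848) was called under all 11 other settings with all arrays and with each array left out in turn. The other two tested Dnah1 probes gave -0.74 and -0.32, overlapped between the genotypes and did not pass. Dnah2 encodes a heavy chain of the inner arm that has a pair of heads. It read 4.31, 4.65, 4.54 and 4.12 in the mutant and 4.83, 5.06, 5.05 and 4.49 in wild type, with wild-type replicate 4 below mutant replicates 2 and 3. Its difference of -0.45 (SE 0.18) did not pass (adjusted p = 0.0767).

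Probes named Dnah12 made up the other inner arm calls. The brightest read 2.29, 2.52, 2.39 and 2.33 in the mutant and 2.85, 2.74, 2.82 and 3.31 in wild type, with no overlap (difference -0.55, SE 0.16, adjusted p = 0.0259). A second probe at chr1:47021934-47021993 overlaps it in sequence and gave -0.62 (adjusted p = 0.0215). The array files place both of these on chromosome 1, where RefSeq has Dnah7a, Dnah7b and Dnah7c, while RefSeq has Dnah12 on chromosome 14. Which of these genes the pair reads was not settled. A probe on chromosome 14, at chr14:24324269-24324328, read 1.72, 2.16, 1.91 and 1.38 in the mutant and 2.60, 2.37, 2.42 and 2.28 in wild type. It too was lower without overlap (difference -0.62, adjusted p = 0.0266), and the dimmest Dnah12 probe gave 0.20. The calls of the brightest Dnah12 probe and of the one on chromosome 14 ended with quantile normalization, with cyclic loess, with normexp and with spike-in scaling, and with 1 array dropped they held in 5 and in 3 of the 8 fits. The remaining inner arm genes, Dnah3, Dnah6 and Dnah10, had 6 tested probes between -0.69 and 0.061, and 0 of these passed. A second Dnah6 probe was not well above background on any mutant array and was so on 2 of 4 wild-type arrays. Its mean was 1.52-fold lower in the mutant, and the arrays of the genotypes overlapped.

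The intermediate and light chains that anchor and regulate the axonemal arms gave 2 calls, both lower. They came from 2 tested intermediate chain and 2 tested light chain probes. Both called probes had a mean level from 2 to under 4, where 28.1% of all tested probes were lower and 8.39% higher. Dnai1, an intermediate chain at the base of the outer arm, read 2.12, 2.46, 2.31 and 1.87 in the mutant and 2.87, 2.70, 2.73 and 2.64 in wild type. The genotypes did not overlap, and the fall was 1.45-fold (difference -0.54, SE 0.15, adjusted p = 0.0266). Its partner Dnai2 read -3.81, -3.45, -3.55 and -3.65 in the mutant and -3.56, -3.60, -3.69 and -3.83 in wild type. Dnai2 was dim, its values overlapped and its difference was 0.056 (SE 0.14, adjusted p = 0.766). Dnal4, a light chain of the outer arm, read 3.35, 3.47, 3.40 and 2.98 in the mutant and 3.90, 4.01, 4.01 and 4.07 in wild type. All mutant arrays were lower, with a gap between the genotypes wider than the spread of the wild-type arrays, and the fall was 1.62-fold (difference -0.70, SE 0.14, adjusted p = 0.00825). Dnali1, a light intermediate chain of the inner arms, read 5.13, 5.27, 4.96 and 4.25 in the mutant and 5.30, 5.58, 5.63 and 4.77 in wild type. Replicate 4 was the lowest array in both genotypes, and the difference of -0.42 (SE 0.26) did not pass (adjusted p = 0.233). The call of Dnal4 ended with cyclic loess (-0.37, adjusted p = 0.0509), and that of Dnai1 ended with cyclic loess, quantile normalization and spike-in scaling, and in 5 of the 8 fits with 1 array dropped.

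**Figure D3:**
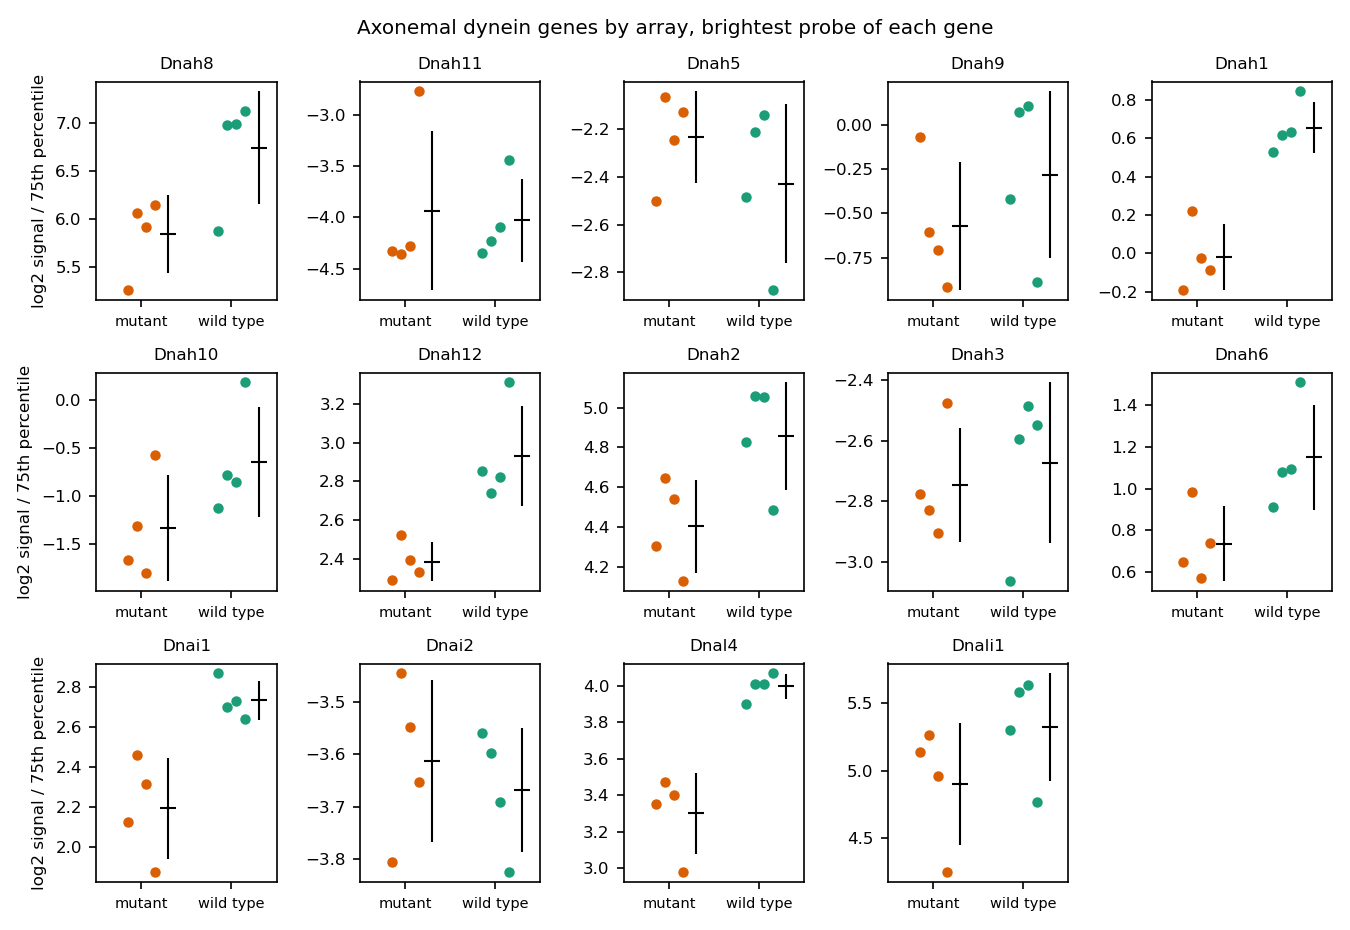
Log2 signal over the array's 75th percentile for the brightest probe of each of the 14 axonemal genes, with the mutant arrays on the left (orange) and the wild-type arrays on the right (green). Black bars give the mean and SD of 4 arrays. The genotypes are fully apart for Dnah1, Dnah12, Dnai1 and Dnal4 and overlap for the other 10 genes, and each panel has its own scale.

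Cytoplasmic dynein 1 differed little as a whole, and its paralogous intermediate chains had differences of opposite sign. Of 13 tested probes of 5 genes, 2 were called lower and 1 higher, beside 10.8% and 21.2% of all tested probes, with a median of -0.20. Dync1h1, the motor heavy chain, read 3.84, 4.12, 4.07 and 3.95 in the mutant and 4.25, 4.21, 4.19 and 4.43 in wild type with its brightest probe. The mutant arrays were all slightly lower, and the difference of -0.27 (SE 0.13) did not pass (adjusted p = 0.126), with a sign that turned under quantile normalization (0.053) and cyclic loess (0.082). Dync1i1, the intermediate chain best known from neurons, read 1.48, 0.94, 1.23 and 1.58 in the mutant and 0.64, 0.57, 0.42 and 0.75 in wild type. It rose 1.64-fold without overlap (difference 0.71, SE 0.17, adjusted p = 0.0132), and only spike-in scaling, of the 11 other settings, ended the call (0.64, adjusted p = 0.0545). A dim Dync1i1 probe gave 0.48 and did not pass. Dync1i2, the intermediate chain found in most cells, read 2.76, 3.23, 3.33 and 3.15 in the mutant and 3.13, 3.21, 3.37 and 3.63 in wild type with its brightest probe. These values overlapped, with a difference of -0.21 (SE 0.17, adjusted p = 0.345) that turned positive under the same 2 settings (0.037 and 0.081). A probe further upstream was called lower, at -0.58 (adjusted p = 0.0163), though not with spike-in scaling or cyclic loess. The light intermediate chain genes Dync1li1 and Dync1li2, which link the motor to its adaptors, had 6 tested probes between -0.49 and 1.08. Of these, 1 Dync1li2 probe was called lower, a call that ended under the same 2 settings and in 5 of the 8 fits with 1 array dropped, and the Dync1li1 probe at 1.08 did not pass.

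Probes of the motor chain of dynein 2 were called lower in the mutant, 1 of them under every setting that kept all arrays. Dync2h1, the heavy chain of this retrograde motor, had 9 probes spread along the gene, of which 7 were tested and 4 were called lower. These 4 had a mean level of 0 or more, where 23.0% of all tested probes were lower and 11.2% higher. The brightest read 2.84, 3.35, 3.20 and 2.99 in the mutant and 3.54, 3.61, 3.57 and 3.64 in wild type, with no overlap (difference -0.49, SE 0.14, adjusted p = 0.0274). The next, with its ends at chr9:7140158-7141422, read 1.38, 2.09, 1.82 and 1.70 in the mutant and 2.55, 2.54, 2.41 and 2.35 in wild type. This was the largest fall among the Dync2h1 probes, 1.64-fold (difference -0.71, SE 0.17, adjusted p = 0.0126), and its call held under all 10 other settings it was part of and with each array left out. The call of the brightest probe was less stable, ending with spike-in scaling, quantile normalization, cyclic loess (-0.19) and normexp, and in 5 of the 8 fits with 1 array dropped. The remaining calls were -0.50, which ended in all 8 such fits, and -0.65, which ended in 5 of them, and the 3 dim tested probes, at -0.37, -0.21 and 0.54, did not pass. Dync2li1, the light intermediate chain of the same motor, read 0.79, 1.13, 1.11 and 1.16 in the mutant and 1.54, 1.28, 1.38 and 2.14 in wild type. The mutant arrays were all lower, and the difference of -0.53 (SE 0.20) did not pass (adjusted p = 0.0651). The Dync2h1 probe with the stable call is printed as in the array files. It is 60 bases, 5′ to 3′, and it crosses at least 1 intron, since its ends lie over a kilobase apart.
Dync2h1 (chr9:7140158-7141422, minus strand): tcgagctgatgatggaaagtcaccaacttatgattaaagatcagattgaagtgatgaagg

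The light chains, small subunits that axonemal and cytoplasmic dyneins share, moved in both directions. Of 12 tested probes of 6 genes, 4 were called higher and 3 lower, beside 21.2% and 10.8% of all tested probes. The roadblock-type paralogues were called in opposite directions. Dynlrb1, the form found in most tissues, read 1.89, 1.33, 1.84 and 1.68 on the mutant arrays and 1.09, 0.92, 1.06 and 1.07 on the wild-type arrays. All mutant arrays were higher, a rise of 1.57-fold (difference 0.65, SE 0.15, adjusted p = 0.0134). Dynlrb2, the form enriched in testis and ciliated tissue, read 4.74, 4.75, 4.52 and 4.31 on the mutant arrays and 5.26, 5.43, 5.46 and 5.19 on the wild-type arrays. All mutant arrays were lower, a fall of 1.69-fold (difference -0.75, SE 0.15, adjusted p = 0.00680). The second Dynlrb2 probe gave -0.68 (adjusted p = 0.0103), and its call held under every other setting with all arrays. That of the first ended with cyclic loess (-0.35, adjusted p = 0.0587), and that of Dynlrb1 with median and with spike-in scaling.

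The Tctex-type light chain Dynlt1 was lower in the mutant by its bright probe, which read 6.47, 6.76, 6.76 and 6.51 in the mutant and 6.91, 7.19, 7.39 and 7.29 in wild type. The genotypes did not overlap (difference -0.57, SE 0.15, adjusted p = 0.0205). RefSeq lists the copies Dynlt1a, Dynlt1b, Dynlt1c and Dynlt1f on chromosome 17, and the array files place the probe on chromosome 13, so the copy it reads is uncertain. The value depended on the processing, with a difference of -0.039 under cyclic loess, and the call held in 5 of the 8 fits with 1 array dropped. The 2 dimmer probes named Dynlt1 gave -0.20 and 0.14. Dynll1, the hub light chain that binds many partners besides dynein, read 6.95, 7.23, 6.95 and 6.74 in the mutant and 7.52, 7.37, 7.43 and 7.16 in wild type. Mutant replicate 2 lay above the lowest wild-type array, and the difference of -0.40 (SE 0.15) did not pass (adjusted p = 0.0618) and was 0.14 with cyclic loess.

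In Dynll2 and Dynlt3, downstream probes were called higher while the brightest probe was not called. Dynll2, the close paralogue of Dynll1, read 6.39, 6.46, 6.04 and 5.81 in the mutant and 6.58, 6.81, 6.72 and 5.86 in wild type with its brightest probe. These values overlapped, with a difference of -0.32 (SE 0.24, adjusted p = 0.313) that turned positive under quantile normalization (0.088) and cyclic loess (0.18). The probe farthest downstream, 1814 bases away in genome coordinates, read 3.14, 2.59, 2.94 and 2.90 in the mutant and 2.24, 2.02, 2.18 and 2.03 in wild type. It was higher on all mutant arrays (difference 0.78, SE 0.15, adjusted p = 0.00642). A probe near that one read 2.23, 2.06, 2.42 and 2.23 in the mutant and 1.78, 1.61, 1.35 and 0.81 in wild type, and was higher as well (difference 0.85, SE 0.21, adjusted p = 0.0156). Both rises were called under all 10 other settings they were part of and with each array left out. Dynlt3, a Tctex-type light chain, had a like pair of probes. Its brightest probe, whose ends span an intron, read 1.18, 1.18, 0.72 and 0.74 in the mutant and 1.17, 1.47, 1.53 and 0.94 in wild type and overlapped (difference -0.32, SE 0.19, adjusted p = 0.198). Its downstream probe, 1645 bases away in genome coordinates, read -0.64, -1.19, -0.83 and -0.61 in the mutant and -1.32, -1.76, -1.85 and -1.28 in wild type. That probe was called higher (difference 0.74, SE 0.19, adjusted p = 0.0191), though not with median or spike-in scaling, and in 4 of the 8 fits with 1 array dropped.

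The upstream probes of these genes are shown because they mark the stretches read by the probes that were not called. Each is 60 bases, 5′ to 3′, as in the array files.
Dynll2 (chr11:88051384-88051443, minus strand): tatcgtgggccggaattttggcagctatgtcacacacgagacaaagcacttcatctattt
Dynlt3 (chrX:8089604-8090246, minus strand): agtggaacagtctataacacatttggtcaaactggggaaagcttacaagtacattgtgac

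In the 19 member genes with several tested probes, the difference of the probe nearest the 3′ end was set against that of the probe nearest the 5′ end, by genome position and strand, a comparison chosen after the values had been seen. Dynll2 (1.09, SE 0.29) and Dynlt3 (1.06, SE 0.36) had the largest gaps, each with a two-sided exact permutation p of 0.0571 and 0.197 after adjustment over the 19 genes. Wild-type replicate 4 lay within the mutant range in both genes. Dync1h1, with a gap of -0.68 in the other direction, had the smallest p that 4 against 4 arrays allow, 0.0286, also 0.197 after adjustment. No gene passed after adjustment, and with 4 arrays a genotype none could unless many of the 19 reached the smallest p. The adjusted result therefore decides nothing. The compared probes also differ in brightness, with mean levels of 2.51 (3′) and 6.33 (5′) in Dynll2 and 4.13 (3′) and -2.94 (5′) in Dync1h1. Differences went with brightness across the array, so a gap can hold that shift.

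Paralogues were also set against each other within each array, which removes a single scaling factor of each array. A shift that goes with brightness stays in, and the probes of a pair can differ in brightness. Mean levels were 1.36 for Dynlrb1 and 4.96 for Dynlrb2, and 0.95 for Dync1i1 and 3.22 for Dync1i2. The ratio also holds each probe's own brightness, so only its difference between genotypes is read. The 6 pairs were chosen with earlier values known. The log2 ratio of Dynlrb1 to Dynlrb2 was -2.85, -3.42, -2.68 and -2.63 on the mutant arrays, against -4.17, -4.51, -4.40 and -4.12 on the wild-type arrays. The genotypes were fully apart, by 1.40 (SE 0.21), with a two-sided exact permutation p of 0.0286, the smallest possible, and 0.0857 after adjustment over the 6 pairs. The ratio of Dync1i1 to Dync1i2 was -1.28, -2.29, -2.10 and -1.56 in the mutant and -2.49, -2.64, -2.94 and -2.88 in wild type. It was higher in the mutant without overlap, by 0.93 (SE 0.26, exact permutation p = 0.0286, adjusted 0.0857). With 4 arrays a genotype, no pair could pass the threshold after adjustment unless several reached the smallest p. The differences of Dync1h1 against Dync2h1 (0.22, SE 0.066), Dynlt3 against Dynlt1 (0.24, SE 0.22), Dync1li1 against Dync1li2 (0.38, SE 0.58) and Dynll2 against Dynll1 (0.088, SE 0.18) had exact permutation p of 0.0571, 0.371, 0.457 and 0.714. After adjustment these were 0.114, 0.549, 0.549 and 0.714. For Dync1h1 against Dync2h1, wild-type replicate 4 overlapped the mutant range.

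**Figure D4:**
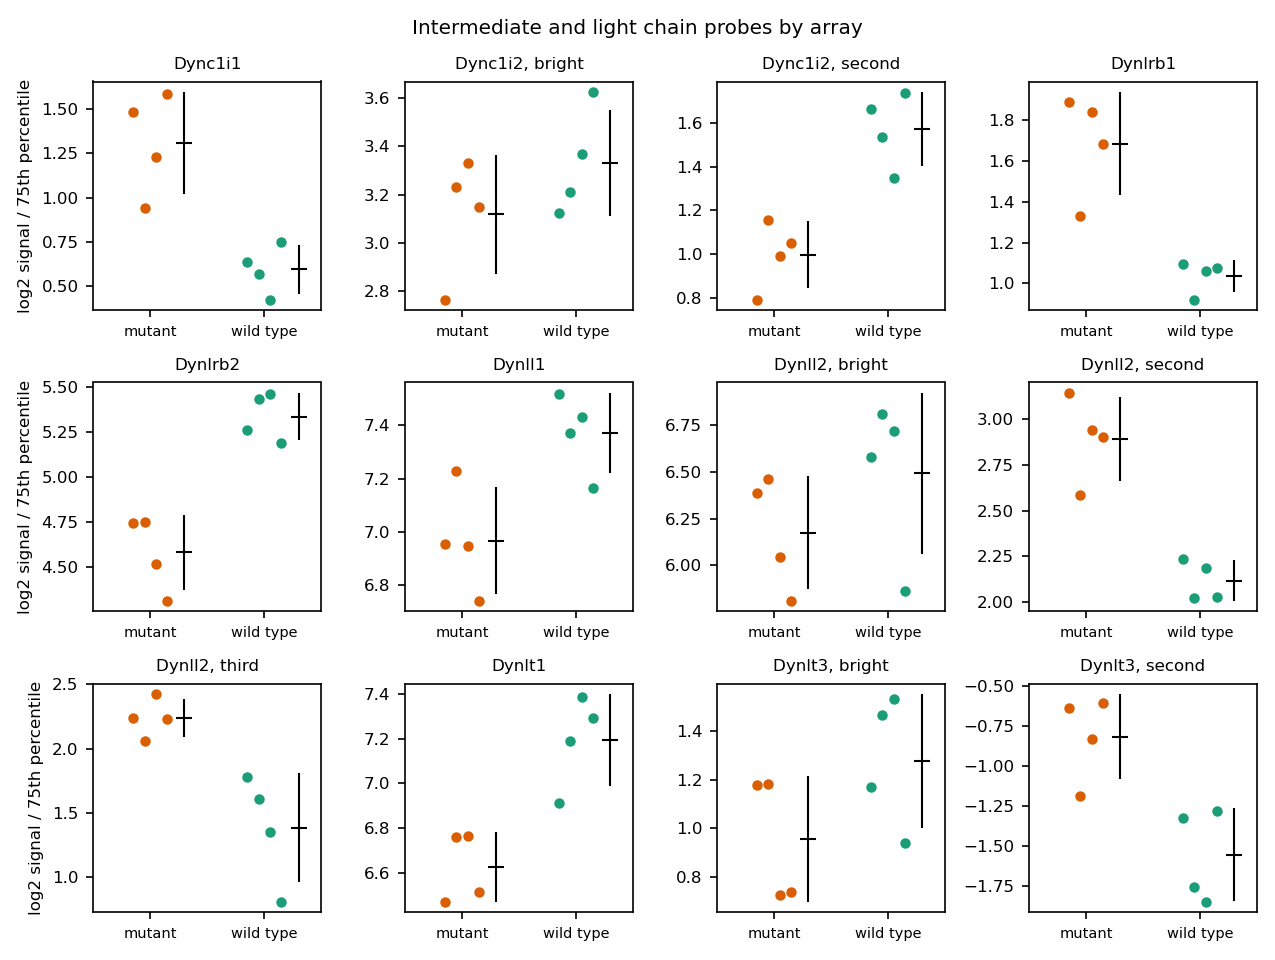
Log2 signal over the array's 75th percentile for intermediate and light chain probes, with the mutant arrays on the left (orange) and the wild-type arrays on the right (green) and bars for the mean and SD of 4 arrays. Dync1i1, Dynlrb1 and the downstream probes of Dynll2 and Dynlt3 are higher in the mutant without overlap, while Dynlrb2, Dynlt1 and the second Dync1i2 probe are lower without overlap, and each panel has its own scale.

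The promoters of the called roadblock-type paralogues, of Dync1i1 and of Dync2h1 are given from RefSeq (GRCm38.p6), from 250 bases before to 50 after the annotated start. Capitals mark the letters GTTGCC, or GGCAAC where the match is on the reverse strand, a core of the X-box bound by RFX factors, which are known for their role at genes of cilia. Only this motif was searched, on both strands.
Dynlrb2 (chr8:116504765-116505064, plus strand): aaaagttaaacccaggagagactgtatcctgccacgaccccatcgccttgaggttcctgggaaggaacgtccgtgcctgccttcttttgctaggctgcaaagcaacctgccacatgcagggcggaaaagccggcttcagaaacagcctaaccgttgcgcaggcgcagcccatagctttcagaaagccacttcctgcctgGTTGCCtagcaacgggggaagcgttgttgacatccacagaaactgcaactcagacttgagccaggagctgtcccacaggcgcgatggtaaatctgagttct
Dynlrb1, first of 2 start sites (chr2:155236283-155236582, plus strand): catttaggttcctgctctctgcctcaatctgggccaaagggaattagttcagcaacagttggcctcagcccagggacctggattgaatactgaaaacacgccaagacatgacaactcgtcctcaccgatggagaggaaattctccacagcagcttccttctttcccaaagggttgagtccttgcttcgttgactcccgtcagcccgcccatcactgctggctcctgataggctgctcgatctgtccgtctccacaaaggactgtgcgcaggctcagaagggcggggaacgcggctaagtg
Dync1i1 (chr6:5725389-5725688, plus strand): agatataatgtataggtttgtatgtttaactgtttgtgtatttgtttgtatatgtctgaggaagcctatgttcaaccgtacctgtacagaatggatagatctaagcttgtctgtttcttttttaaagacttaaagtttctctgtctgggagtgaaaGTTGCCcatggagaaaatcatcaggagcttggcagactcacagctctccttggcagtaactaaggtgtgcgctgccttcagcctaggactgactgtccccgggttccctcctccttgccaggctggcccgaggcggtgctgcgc
Dync2h1 (chr9:7177009-7177308, minus strand): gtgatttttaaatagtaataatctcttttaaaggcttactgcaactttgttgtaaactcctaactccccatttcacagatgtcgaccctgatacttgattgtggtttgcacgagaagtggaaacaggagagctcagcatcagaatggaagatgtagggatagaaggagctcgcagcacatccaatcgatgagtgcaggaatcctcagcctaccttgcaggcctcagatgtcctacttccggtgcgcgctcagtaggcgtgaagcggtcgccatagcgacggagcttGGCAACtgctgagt

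The match lay 51 bases before the start in Dynlrb2, 94 bases before it in Dync1i1 and 36 bases after it in Dync2h1. Neither start site of Dynlrb1 had a match in its window. Of the 26 member genes with a promoter in the table, 7 (26.9%) held a match at any of their start sites. Of all 32851 promoters, each counted by itself, 12.5% held one. A gene with several start sites has more chances of a match, so the 2 shares are not alike. The matches fell in 2 of 13 axonemal and 5 of 13 cytoplasmic genes. By outcome, they fell in 3 of 11 genes with a lower probe, 1 of 4 with a higher probe and 3 of 11 with neither, shares of 27.3%, 25% and 27.3%. A match is a stretch of letters and not a measured site.

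Dynactin, the activator and cargo linker of dynein 1, was lower where it passed. Of 10 tested probes of 6 genes, 3 were called lower and 0 higher, with a median of -0.45. Most of these probes had a mean level of 0 or more, where 23.0% of all tested probes were lower and 11.2% higher, so the count is near that share. Dctn2, the subunit dynamitin that holds the shoulder of the complex together, read 3.78, 3.94, 3.75 and 3.66 in the mutant and 4.25, 4.32, 4.25 and 4.36 in wild type. It fell 1.43-fold, with no overlap and little spread (difference -0.51, SE 0.12, adjusted p = 0.0141). Dctn5, a subunit of the pointed end, read 1.03, 1.14, 1.21 and 0.90 in the mutant and 1.71, 1.47, 1.33 and 1.69 in wild type with its brightest probe. It was lower without overlap (difference -0.48, SE 0.14, adjusted p = 0.0301), and the differences of its other two probes, -0.45 and -0.46, did not pass. The calls of Dctn2 and Dctn5 both ended with quantile normalization, cyclic loess, normexp and spike-in scaling. With 1 array dropped, Dctn2 kept its call in all 8 fits and Dctn5 in 3 of them. Dctn4, another pointed end subunit, read 0.76, 1.20, 1.21 and 0.70 in the mutant and 1.69, 1.58, 1.49 and 1.66 in wild type with its brightest probe. This fall of 1.55-fold (difference -0.64, SE 0.16, adjusted p = 0.0167) held under all 11 other settings and with each array left out, while its other two probes, at -0.23 and -0.44, did not pass. Dctn1, the large p150 subunit that grips the microtubule, read 2.01, 1.74, 1.78 and 2.82 in the mutant and 2.30, 2.47, 2.45 and 3.22 in wild type. Replicate 4 was the highest array in both genotypes, and the difference of -0.52 (SE 0.28) did not pass (adjusted p = 0.168). Dctn3 and Dctn6 gave -0.34 and 0.090 and did not pass.

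Of the 26 member probes called, 6 were called under every other setting with all arrays and with each array left out. They were the brightest Dnah1 and Dctn4 probes, 1 Dync2h1 probe and 1 Dynlrb2 probe, all lower in the mutant, and the downstream pair of Dynll2, which was higher. With mutant replicates 1 and 4 left out, these gave -0.56 for Dnah1, -0.40 for Dctn4, -0.50 for Dync2h1, -0.57 for Dynlrb2 and 0.65 and 0.86 for Dynll2. In that smaller set of arrays Dync1i1 gave 0.49 and Dynlrb1 0.55 (adjusted p = 0.117 and 0.113).

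Genes that build, dock or regulate the axonemal arms were lower in the mutant wherever they passed. The lists are textbook components, written with earlier results of these data known, and genes are counted by their brightest probe, by which 12.4% of all tested genes were lower and 21.6% higher. Bright probes were lower more often, 28.1% of all probes with a level from 2 to under 4 (8.39% higher), the range that holds the median level of the assembly, nexin-dynein and radial spoke lists. Of 15 tested genes for factors that assemble dynein arms in the cytoplasm, 11 were lower by their brightest probe and 0 higher, with a median of -0.57. Among them were Dnaaf2 (-0.85, adjusted p = 0.00724), a cochaperone of heavy chain folding, and Ruvbl2 (-0.68, adjusted p = 0.0173), an ATPase of the R2TP complex. Dnaaf1, a leucine-rich repeat factor, was lower as well (-0.57, adjusted p = 0.0193). Of 5 tested genes of the outer arm docking complex, only Odad3 was lower (-0.67, adjusted p = 0.0410), while Odad4 gave -0.55 and Nme8 -0.30 and did not pass.

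Of 11 genes of the nexin-dynein regulatory complex and the rulers that space the arms, 7 were lower and 0 higher, with a median of -0.65. They included the ruler Ccdc40 (-0.81, adjusted p = 0.00722) and Ccdc65, a part of the complex (-0.68, adjusted p = 0.0109). Lrrc23, counted with this list and also known as a radial spoke protein, was lower too (-0.78, adjusted p = 0.00953). Of 8 tested radial spoke genes, which pass signals from the central pair to the arms, 6 were lower and 0 higher, among them Rsph9 (-0.74), Rsph6a (-0.69) and Rsph1 (-0.60). Their adjusted p were 0.00800, 0.00606 and 0.0173. Of 8 tested central pair genes, 5 were lower and 0 higher, with Spag16 at -0.79, Spef2 at -0.70 and Spag6 at -0.68 (adjusted p = 0.00396, 0.00944 and 0.0165).

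Regulators and adaptors of cytoplasmic dynein went both ways, with 6 of 26 tested genes higher, 5 lower and a median of -0.010. The 3 with the smallest p were all higher in the mutant. They were Nin, which encodes the centrosomal adaptor ninein (0.95, adjusted p = 0.00318), the lysosomal adaptor gene Rilp (0.70, adjusted p = 0.00871) and the mitochondrial adaptor gene Trak2 (0.63, adjusted p = 0.00940). Nin lay near the floor of the signal, with -4.93, -5.27, -5.06 and -4.81 in the mutant and -5.76, -5.90, -6.12 and -6.12 in wild type.

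**Figure D5:**
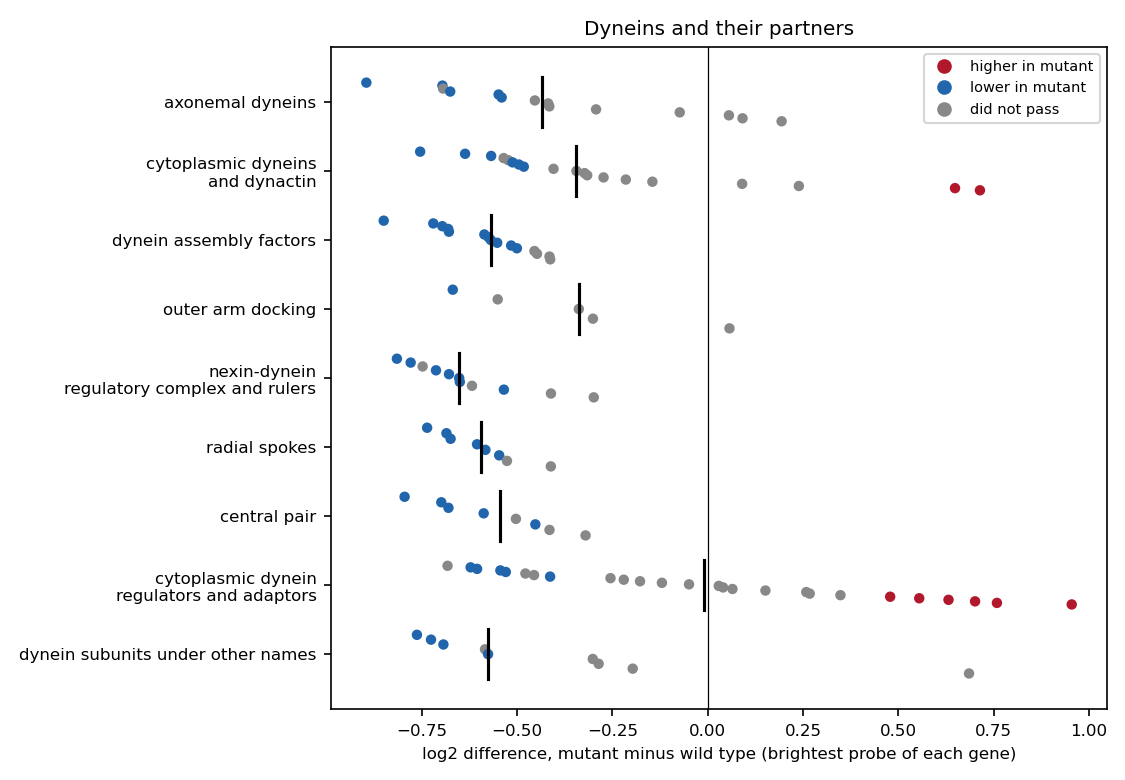
Log2 difference (mutant minus wild type) of the brightest probe of each gene, for the axonemal dyneins, the cytoplasmic dyneins with dynactin, and the lists of their partners. Blue points were lower in the mutant, red points higher, grey points did not pass, and black bars are list medians. The assembly factor, nexin-dynein, radial spoke and central pair lists lie wholly below 0, while the cytoplasmic regulators spread on both sides of it.

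Markers of several cell types of the testis also differed. The counts stand beside 12.4% of all tested genes lower and 21.6% higher by their brightest probe, and some lists are near these shares. Among all tested probes, 28.1% with a level from 2 to under 4 were lower, and 37.5% with a level of 4 or more. Most late spermatocyte and spermatid genes were that bright, and the round spermatid count is near the shares of such bright probes. The late spermatocyte list shares Spag6 with the central pair list. Of 14 late spermatocyte genes, 11 were lower, and their signals summed to 478 to 631 in the mutant and 707 to 782 in wild type, in units of the 75th percentile. Of 16 round spermatid genes, 6 were lower (239 to 445 in the mutant, 476 to 573 in wild type). The sum of 239, on mutant replicate 4, leaves out the bright gene Tekt1, which had no value there. The other mutant arrays gave 372 to 445. Of 15 elongating spermatid genes, 1 was lower (2244 to 2797 in the mutant, 2566 to 3259 in wild type). Of 14 Sertoli cell genes, 12 were higher (236 to 333 in the mutant, 103 to 161 in wild type), as were 4 of 8 tested Leydig cell genes (146 to 245 in the mutant, 75.4 to 134 in wild type) and 6 of 8 macrophage genes (11.5 to 30.9 in the mutant, 8.44 to 9.38 in wild type). The spermatogonial list held 4 higher and 1 lower of 10 genes, and the peritubular myoid list 0 called of 6. The epididymal list held 5 higher and 0 lower of 10 tested genes. Efferent ducts carry multiciliated cells with dynein arms of their own. Of 7 tested efferent duct genes 2 were higher and 2 lower, with sums of 1.33 to 1.68 in the mutant and 1.41 to 1.90 in wild type. Of 9 tested multiciliated cell genes, a list that includes Dynlrb2, 2 were higher and 3 lower. The sums were 84.8 to 107 in the mutant and 138 to 178 in wild type. Most of these sums came from Tekt4 and Dynlrb2, which with Foxj1 were the 3 lower genes. Dynlrb2 is enriched in testis as well as in ciliated tissue, so the sums do not read multiciliated cells alone. The 2 higher genes, Myb and Scgb1a1, were much dimmer, so the sums hardly reflect them. Cdhr3 was not well above background on any array. The part of these cells, and of the epididymal transcripts on mutant replicates 1 and 4, in the dynein differences was not tested.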

How the data were processed

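Per the file headers, the authors scanned each single-colour (Cy3) array with Agilent Feature Extraction 9.5.3.1, and the deposited intensities are processed signals, background-subtracted and detrended within each array, with nothing scaled between arrays. The labelling input was 0.5 ug of RNA per the labels' protocols. The value table of the series holds the same intensities, identical at all 45018 features. Probe positions are mm7, as the array files give them, and RefSeq (GRCm38.p6) gave current symbols, chromosomes and promoters.

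From the deposited intensities, each signal was divided by its array's 75th percentile over 43379 features that are no controls, floored at 0.01437 of that percentile and put on the log2 scale. Outlier-flagged spots were dropped, and repeated spots were averaged for 245 probes. A probe needed a signal well above background on at least 4 arrays and at least 3 values a genotype. The 33717 tested probes were fitted together with limma 3.58.1 (R 4.3.3, lmFit and eBayes, 4 mutant against 4 wild-type arrays), and p-values were adjusted by the Benjamini-Hochberg method, with calls under 0.05. The fit was tested on simulated data. Exact permutation tests used scipy 1.17.1. Precision is limited by the number of arrays, and no spot was saturated.

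Members were found by the gene name in the array files, and 73 of the 78 probes matched a RefSeq gene name. Members, pathway lists, marker lists and tests were chosen with earlier results of these data known. Genes given with every array's value were a list of main subunits and, in each role group, the 3 tested genes with the smallest p, by the brightest probe. Partner genes are the 3 with the smallest p in each list. Other probes and genes are given by range and counts, apart from those singled out beside a result after their values were seen. The samples are biological replicates per the labels, and same-numbered arrays were not treated as pairs. Alternatives were other scalings (median, E1A spike-in, quantile, cyclic loess), normexp background correction (offset 50), a floor 4 times as high, other filters, array weights, the replicate number as a block, 1 probe a gene, and leaving out arrays.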

Additional observations from a re-analysis of the deposited data

Results flagged for a closer look

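Each group of 4 arrays was searched for a lone array far from the other 3, among the 26 member genes given by array. Of 52 groups, 3 held one, and chance flags about 1 in 20 groups. Dnah8, the outer arm heavy chain of sperm, read 5.87 on wild-type replicate 1 (log2 signal over the 75th percentile), below the other wild-type arrays, which lay at 6.98, 6.99 and 7.13. Dnah11, an outer arm heavy chain of motile cilia, read -2.77 on mutant replicate 4, above the other mutant arrays at -4.33, -4.36 and -4.28. Dync2li1, the light intermediate chain of dynein 2, read 0.79 on mutant replicate 1, below the other mutant arrays at 1.13, 1.11 and 1.16.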

How the results depend on the processing

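The medians of axonemal and cytoplasmic probes stayed below 0 under every setting. Axonemal higher, axonemal lower, cytoplasmic higher and cytoplasmic lower calls were 1, 8, 5 and 12 as reported. Median scaling, which moved the median of all probes to -0.17, gave 3 cytoplasmic probes higher and 23 lower (26.0% of all probes were lower), with medians of -0.58 for axonemal and -0.54 for cytoplasmic probes, or -0.42 and -0.38 relative to all probes. E1A spike-in scaling left 3 axonemal probes lower and 2 cytoplasmic higher and 4 lower (3.74% of all probes lower). Quantile normalization gave 0 axonemal probes higher and 5 lower and 7 cytoplasmic lower (10.0% of all lower). Cyclic loess gave 3 axonemal and 4 cytoplasmic probes lower (8.08% of all) and 5 cytoplasmic probes higher (15.3% of all), with a cytoplasmic median of -0.18. Normexp, with the median of all probes at -0.23, left 0 axonemal probes higher. A floor 4 times as high gave an axonemal minus cytoplasmic median of 0.10, against -0.044 as reported. Array weights gave 15 axonemal probes lower and 8 cytoplasmic higher and 20 lower (23.5% of all lower). With 1 probe a gene there were 0 axonemal higher and 5 lower, and 2 cytoplasmic higher and 6 lower (22.2% higher and 13.3% lower of all genes). Without mutant replicates 1 and 4 all 4 counts were 0. With single arrays left out, the counts ranged over 0 to 1, 2 to 9, 4 to 6 and 6 to 13. The share of calls that were higher was 66.2% as reported, 33.9% with median scaling, 40.3% with normexp, 76.2% with spike-in scaling, 56.5% with quantile normalization and 55.2% with weights. Among brightest probes that did not pass, the sign turned under at least 1 other scaling or background correction for Dnah5, Dnah11, Dnai2, Dync1h1, Dync1i2, Dynll1 and Dynll2. The cause of these changes was not tested.

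Same-numbered arrays of the 2 genotypes deviated together with r of 0.28, 0.24, 0.090 and 0.61, and each array's best match had its own number, a hint from the data and not from the design. With the replicate number as a block, 2 axonemal probes were higher and 13 lower, and 7 cytoplasmic probes higher and 18 lower (27.4% and 17.5% of all probes). The block also called the brightest probes of Dctn1 (adjusted p = 0.0189), Dnah2 (0.0211), Dync2li1 (0.0362), Dynll1 (0.0402) and Dnali1 (0.0414) lower. Signal over background limits the dim probes, and 7 of the 78 member probes were too dim to test.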

Other observations

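Several dynein genes carry names on this array that do not start as the member names do. RefSeq gives a dynein symbol of the same families to 12 further probes of 6 genes, of which 10 were tested. Of these, 3 were lower in the mutant and 0 higher, where 10.8% of all tested probes were lower, and all 10 differences were below 0, with a median of -0.37. One was the bright Dnah17 probe. Dnal1, a light chain of the outer arm, read 1.59, 1.76, 1.74 and 1.54 on the mutant arrays, against 2.00, 2.16, 2.41 and 2.33 on the wild-type arrays. All mutant arrays were lower (log2 difference -0.56, limma adjusted p = 0.0161). Dnah7b, an inner arm heavy chain, read -0.69, -0.18, -0.52 and -0.32 in the mutant, against 0.21, -0.13, -0.022 and 0.062 in wild type, also without overlap (-0.46, adjusted p = 0.0457).

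A list of dynein subunits known by names outside the member families had 9 tested genes, with 4 lower and 0 higher by their brightest probes. By that measure 12.4% of all tested genes were lower and 21.6% higher. The median level of the list's probes was 2.12, and 28.1% of all tested probes with a level from 2 to under 4 were lower. Dnai4, an intermediate chain listed on the array by an older name, was lower (-0.69, adjusted p = 0.0175), as was the heavy chain domain gene Dnhd1 (-0.58, adjusted p = 0.0162). Dync2i1, an intermediate chain of dynein 2, was lower as well (-0.76, adjusted p = 0.0383). Dynlt2, a Tctex-type light chain known as a testis gene, was called lower although its arrays overlapped (-0.73, adjusted p = 0.0235).

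Of the 7 member probes too dim to test, 3 (of Dnah9, Dnah1 and Dnah2) were not well above background on any array. A Dync2h1 probe was well above background on 3 mutant arrays and 0 wild-type arrays, with a mean 1.13-fold higher in the mutant. A Dnah9 probe was so on 1 mutant array and 0 wild-type arrays, with a mean 1.12-fold higher. A further Dync2h1 probe, with 2 mutant arrays and 0 wild-type arrays, had means of -5.77 in the mutant and -5.75 in wild type. The arrays of the genotypes overlapped for each of these probes. Such a fold sets the brighter genotype's mean against the dimmer one's after the common floor on all signals, and was not tested.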
